A study of Homo sapiens with 6 samples.

Results

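The collagen genes were examined in 3 human non-small cell lung cancer cell lines and in sublines of each selected for resistance to an inhibitor of the EGFR tyrosine kinase. A collagen gene was any gene whose symbol consists of COL, digits, the letter A and digits with nothing after them, which gave 44 of the 21463 genes measured. By structure they divide into 11 fibrillar, 6 basement membrane, 5 beaded filament and 22 other collagens, the last made up of 10 FACIT, 4 transmembrane, 2 multiplexin and 6 network-forming, anchoring or other genes. Messenger RNA was sequenced from 6 libraries, 1 per state and line. The parental lines were labelled sensitive and untreated. HCC827 and PC9 carry the EGFR deletion labelled E19Del, and their resistant sublines, HCC827-GR and PC9-GR, were selected with gefitinib. H1975 carries L858R/T790M, and its subline, H1975-OR, was selected with osimertinib. Selection lasted 90 days under a stepwise rise in drug, and the labels give half-maximal inhibitory concentrations of 0.016 to 0.07 µM for the parental lines and 4.288 to 12.485 µM for the resistant ones. All lines were kept in RPMI-1640 medium with fetal bovine serum. Whether a resistant subline is a clone or a mixed population, and whether it was in drug when RNA was taken, is not given in the sources used here, so stable resistance and drug exposure cannot be told apart.

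Collagens are secreted or membrane-bound proteins whose chains fold into helical trimers in the endoplasmic reticulum. There the chains are hydroxylated on proline and lysine, and outside the cell many are trimmed and crosslinked into fibrils, networks or filaments. Fibroblasts make most of the fibrillar collagen of the lung, whereas epithelial cells, from which these carcinoma lines derive, are known for basement membrane collagens and for the hemidesmosomal collagen XVII. The chains of types IV and VI assemble only as set combinations of gene products, so the partner genes are described side by side.

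Libraries held 21222102 to 29366085 exon reads, so a gene with 0 reads may have had as much as 0.0985 CPM in resistant H1975 and 0.145 CPM in parental PC9, with the other libraries between (3 counts, counting error only). CPM was taken over TMM-adjusted library sizes and is used between libraries, and TPM, which accounts for transcript length, is used between genes. All 8 epithelial markers reached 10 CPM in at least 1 library, and their summed level ranged from 2820 to 14105 CPM over the parental and from 1747 to 7949 CPM over the resistant libraries. Not all were at that level in each library. ESRP1 was at 0.187 CPM in resistant HCC827, and resistant H1975 had 0 reads of ESRP1 and 0.46 CPM of EPCAM. Of 9 fibroblast markers other than collagens, FBLN1 alone reached 10 CPM. DPT had 0 reads in every library, DCN was at or under 0.112 CPM, PDGFRA and THY1 at or under 0.168 CPM, and FAP at or under 0.255 CPM. PDGFRB was at 4.67 and 4.89 CPM in parental and resistant H1975, and LUM at 1.31 and 2.70 CPM in HCC827. The summed fibroblast level was 5.39 and 51.5 CPM in parental and resistant HCC827, 137 and 104 CPM in PC9, and 11.2 and 8.74 CPM in H1975. This was mostly FBLN1 in HCC827, at 3.61 and 46.8 CPM, and in PC9, at 136 and 103 CPM. TCF21 had 0 and 40 reads in HCC827. Endothelial markers summed to at most 20.2 CPM, and the leukocyte sum of 55.5 to 177 CPM was mostly CD68, which is also made outside leukocytes. With 1 library per state and line, differences within a line have no replicate, and p-values of the comparison over lines measure the spread between 3 lines.

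Collagen transcripts were more abundant in the resistant library of every line when summed over the 44 genes. The sum was 332 CPM in parental and 1886 CPM in resistant HCC827, 843 and 1087 CPM in PC9, and 1667 and 2860 CPM in H1975, which is 5.67-fold, 1.29-fold and 1.72-fold. In CPM, parental H1975 held more collagen transcript than resistant PC9, and resistant HCC827 more than parental H1975. In bulk RNA, a change in the share of cells that express a gene and a change in RNA per cell cannot be told apart. On the TPM scale the sums were 115 and 551 in HCC827, 341 and 392 in PC9, and 668 and 1020 in H1975. Resistant HCC827 thus lay below parental H1975 in TPM, the reverse of their order in CPM. The resistant libraries also held less epithelial transcript. The summed markers went from 14105 to 5352 CPM in HCC827 and from 2820 to 1747 CPM in H1975, against 9092 and 7949 CPM in PC9. CDH1, which encodes E-cadherin, stood at 467 and 22.1 CPM in HCC827, 213 and 151 CPM in PC9, and 22.4 and 0.131 CPM in H1975. Mitochondrial genes took 3.32% and 6.62% of reads in parental and resistant HCC827 and 4.67% to 6.86% in the other libraries. The summed fibroblast level was higher in the resistant library in HCC827 alone, where it was mostly FBLN1 (values above). The part of these differences in the collagen values was not tested.

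**Figure D1:**
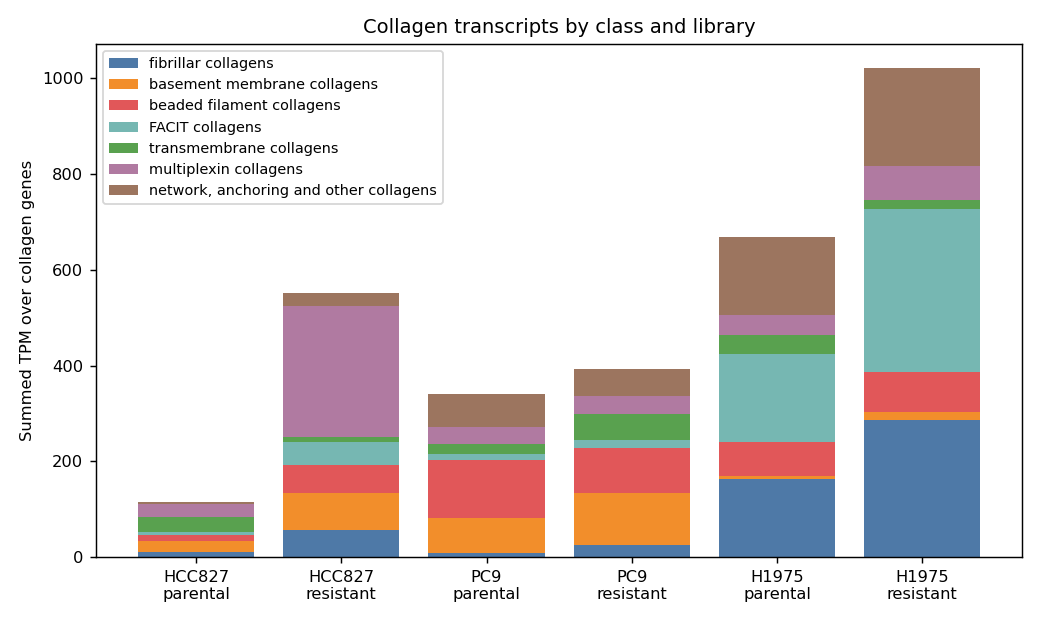
Summed TPM of the collagen genes in each of the 6 libraries (1 library per bar), stacked by structural class from 0. The total goes from 115 to 551 in HCC827, from 341 to 392 in PC9 and from 668 to 1020 in H1975, with the multiplexin block tallest in resistant HCC827 and the FACIT block tallest in both H1975 libraries.

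Each line had its own collagen makeup. In parental HCC827 the most abundant collagen per length was COL17A1 at 29.8 TPM, followed by COL18A1 at 26.0 TPM. In the resistant HCC827 library COL18A1 stood at 271 TPM, and multiplexins made up 49.3% of collagen TPM against 22.7% in the parental library. Parental PC9 was led by the type VI chains COL6A1 (69.6 TPM) and COL6A2 (51.8 TPM), and resistant PC9 by COL17A1 (53.8 TPM) and COL4A5 (53.5 TPM). Both H1975 libraries were led by COL12A1, at 178 TPM in the parental and 331 TPM in the resistant library, followed by COL8A1 and COL5A1. Of the 44 genes, 22 reached 10 CPM in at least 1 library, 10 peaked between 1 and 10 CPM and 12 stayed under 1 CPM everywhere. The number at 10 CPM or more was 6 in parental and 13 in resistant HCC827, 10 and 15 in PC9, and 12 and 15 in H1975.

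**Figure D2:**
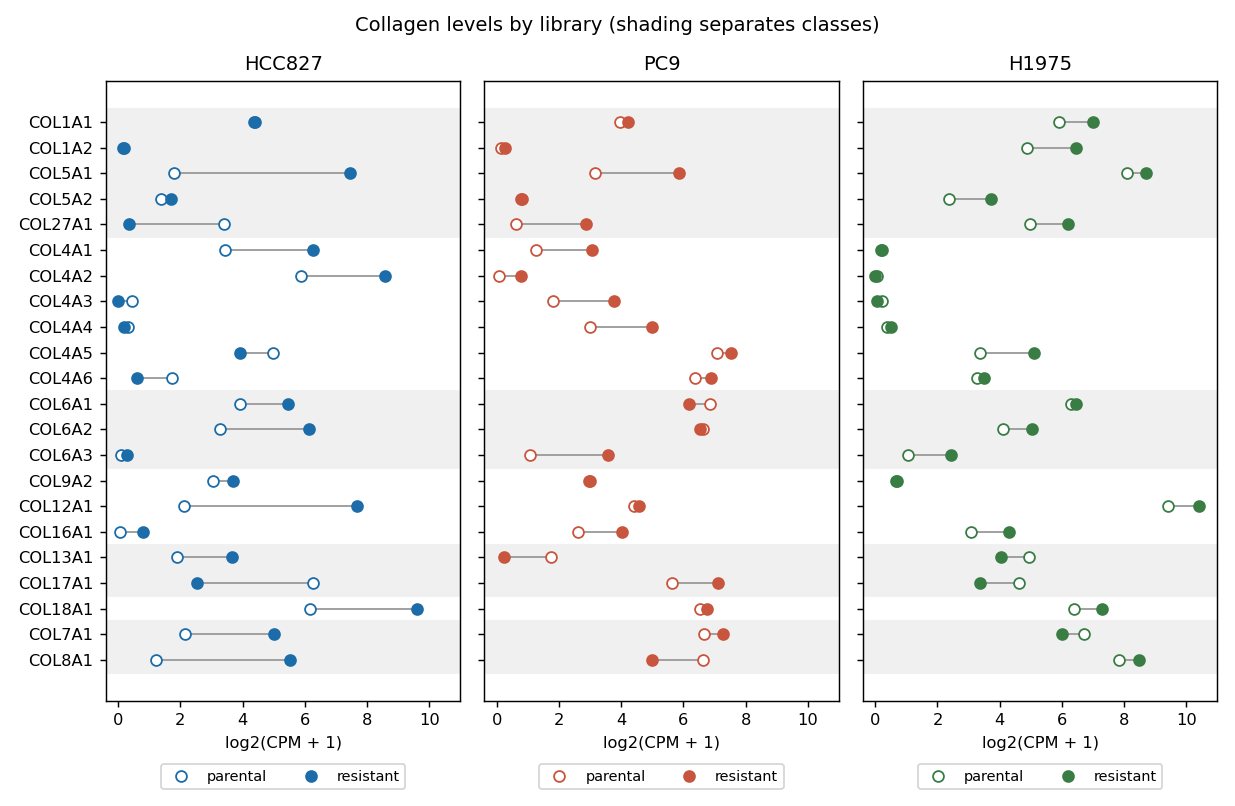
Level of the 22 collagens that reached 10 CPM in at least 1 library, as log2(CPM + 1) per library, with open points for parental and filled points for resistant libraries. Long connecting lines are most frequent in HCC827, as for COL5A1, COL12A1 and COL8A1, while COL17A1 and COL27A1 run the other way in that line.

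Among the fibrillar collagens, which form the striated fibers of the interstitial matrix, COL5A1 was higher in the resistant library of all 3 lines. COL5A1 (ENSG00000130635, hg38 chromosome 9, 134641774 to 134844843, plus strand) encodes a chain of type V collagen, which regulates fibril diameter. It stood at 2.48 CPM in parental and 173 CPM in resistant HCC827, 7.90 and 56.6 CPM in PC9, and 273 and 416 CPM in H1975. In HCC827 the fold of 69.6 rested on 68 parental reads (95% Clopper-Pearson counting interval 54.8 to 89.8). It was 7.17 in PC9 (6.09 to 8.48) and 1.53 in H1975 (1.48 to 1.57). The order of the folds was the reverse of the order of the parental levels, and parental H1975 stood above every HCC827 and PC9 library, so the groups overlapped. Its usual partner in the trimer, COL5A2, had a smaller ratio in both gefitinib-selected lines. It stood at 1.57 and 2.21 CPM in HCC827, 0.776 and 0.713 CPM in PC9, and 4.16 and 12.2 CPM in H1975. Per length, COL5A1 exceeded COL5A2 by 1.34 times in parental and 66.2 times in resistant HCC827, 8.64 and 67.4 times in PC9, and 55.7 and 28.9 times in H1975. Another type V chain gene, COL5A3, stayed under 1 CPM in every library. The 250 bases before the RefSeq start of COL5A1, the fibrillar gene with the widest difference in HCC827, lie at chr9:134641553-134641802 (plus strand, GRCh38.p14) and are shown with GC boxes in capitals:
COL5A1: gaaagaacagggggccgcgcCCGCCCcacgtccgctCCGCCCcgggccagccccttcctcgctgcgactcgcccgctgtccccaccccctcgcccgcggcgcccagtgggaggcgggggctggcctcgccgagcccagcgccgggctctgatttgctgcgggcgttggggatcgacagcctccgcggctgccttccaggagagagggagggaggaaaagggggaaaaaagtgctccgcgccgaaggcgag

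Type I collagen, the main fibril protein of connective tissue, is built from the products of COL1A1 and COL1A2, and only H1975 had both genes at 10 CPM or more. COL1A1 (hg38 chromosome 17, 50183289 to 50201632, minus strand) was at 20.1 and 19.6 CPM in HCC827, 14.6 and 17.6 CPM in PC9, and 59.4 and 126 CPM in H1975. COL1A2 (chromosome 7, 94394561 to 94431232, plus strand) had 4 and 3 reads in HCC827 and 2 and 5 reads in PC9, against 28.2 and 87.5 CPM in H1975. Both genes were thus higher in resistant H1975, by 2.12-fold (1.995 to 2.26) and 3.10-fold (2.85 to 3.38), while COL1A1 had ratios of 0.976 and 1.20 in HCC827 and PC9. The ratio of COL1A1 to COL1A2 in TPM was 1.63 and 1.12 in the H1975 libraries, where it was 107 in parental HCC827 and 65.3 in resistant PC9. The fibrillar COL27A1, best known from cartilage, differed in opposite directions between lines. It was at 9.58 and 0.262 CPM in HCC827 (263 and 7 reads), 0.533 and 6.33 CPM in PC9, and 30.3 and 72.9 CPM in H1975. The resistant level was 36.5-fold lower in HCC827 (17.5 to 91.7), 11.9-fold higher in PC9 (6.45 to 24.3) and 2.41-fold higher in H1975 (2.21 to 2.63). Summed over the 11 fibrillar genes, the resistant libraries stood 5.57-fold, 3.37-fold and 1.82-fold above the parental ones in HCC827, PC9 and H1975.

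The basement membrane collagens are the 6 chains of type IV, which lie in the genome as 3 head-to-head pairs of genes on opposite strands. The RefSeq starts of COL4A1 and COL4A2 are 126 bases apart, those of COL4A4 and COL4A3 are 418 apart, and those of COL4A6 and COL4A5 are 379 apart. The stretch between the COL4A1 and COL4A2 starts, at chr13:110307158-110307283 on the plus strand, is shown with its CCAAT box and GC box in capitals, since these are the partner genes with the widest difference in HCC827. The 250 bases before the start of COL4A3 (chr2:227164374-227164623, plus strand) and of COL4A5 (chrX:108439588-108439837, plus strand) are set beside it, with the E-box CACCTG also in capitals, as promoters of the other type IV pairs (RefSeq, GRCh38.p14):
COL4A1-COL4A2: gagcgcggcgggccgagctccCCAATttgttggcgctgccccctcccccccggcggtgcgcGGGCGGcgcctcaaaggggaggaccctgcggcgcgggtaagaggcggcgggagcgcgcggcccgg
COL4A3: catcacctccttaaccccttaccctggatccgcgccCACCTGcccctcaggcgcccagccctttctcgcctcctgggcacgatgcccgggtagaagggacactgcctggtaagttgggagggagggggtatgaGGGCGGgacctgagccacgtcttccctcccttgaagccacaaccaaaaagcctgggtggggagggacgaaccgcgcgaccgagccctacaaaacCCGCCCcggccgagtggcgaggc
COL4A5: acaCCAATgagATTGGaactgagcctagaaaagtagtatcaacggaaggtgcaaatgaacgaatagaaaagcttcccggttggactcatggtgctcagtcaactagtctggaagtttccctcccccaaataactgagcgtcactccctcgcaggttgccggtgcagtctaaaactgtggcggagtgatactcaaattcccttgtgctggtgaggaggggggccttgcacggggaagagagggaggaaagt

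The COL4A1 and COL4A2 pair makes the ubiquitous type IV network. COL4A2 (ENSG00000134871, hg38 chromosome 13, 110305812 to 110513209) was at 57.7 and 383 CPM in HCC827, had 1 and 17 reads in PC9 and had 1 and 0 reads in H1975. COL4A1 (ENSG00000187498, chromosome 13, 110148963 to 110307233) was at 9.69 and 75.0 CPM in HCC827 and 1.41 and 7.42 CPM in PC9, with 4 and 4 reads in H1975. The pair was therefore an HCC827 feature by level, with the resistant library 6.65-fold (6.30 to 7.01) and 7.74-fold (6.81 to 8.83) above the parental one for COL4A2 and COL4A1. In PC9, COL4A1 was 5.28-fold higher (3.55 to 8.12). The chains were not in a fixed ratio, since COL4A2 exceeded COL4A1 in TPM by 4.74 and 4.07 times in the HCC827 libraries and stood at 0.0765 of it in resistant PC9. Their gene models in the files overlap by 1422 bases, and whether the counts used strand is not given in the sources used here.

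COL4A3 and COL4A4, whose products join COL4A5 in the network of alveolar and glomerular basement membrane, were a PC9 feature. COL4A4 was at 6.93 and 30.7 CPM and COL4A3 at 2.52 and 12.7 CPM in parental and resistant PC9, whereas both were at or under 0.427 CPM in the libraries of the other lines. The resistant PC9 level was 4.44-fold higher for COL4A4 (3.70 to 5.34) and 5.04-fold for COL4A3 (3.75 to 6.90), and the TPM ratio of the genes was 2.34 and 2.05. COL4A5 and COL4A6, on chromosome X, were highest in PC9 and were expressed in all 3 lines. COL4A5 (ENSG00000188153, 108439844 to 108697545) stood at 30.4 and 13.98 CPM in HCC827, 135 and 183 CPM in PC9, and 9.25 and 33.0 CPM in H1975. The resistant library was thus lower in HCC827 by 2.17-fold (1.92 to 2.46), and higher by 1.36-fold (1.29 to 1.42) in PC9 and 3.57-fold (3.08 to 4.15) in H1975. COL4A6 was at 2.33 and 0.525 CPM, 81.7 and 116 CPM, and 8.74 and 10.2 CPM in the same order. For both pairs the 2 genes lay on the same side of the parental level in each library pair where either reached 10 CPM, with a COL4A6 ratio in H1975 whose counting interval included no difference (1.16, 0.973 to 1.40). Per length, COL4A2 led the type IV genes in both HCC827 libraries, COL4A5 in both PC9 libraries and in resistant H1975, and COL4A6 in parental H1975. The summed level was 4.70-fold, 1.54-fold and 2.34-fold higher in resistant HCC827, PC9 and H1975.

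Beaded filament collagen, type VI, forms microfibrils beside basement membranes from the products of COL6A1, COL6A2 and another chain, most often that of COL6A3. COL6A1 stood at 13.96 and 43.1 CPM in HCC827, 116 and 71.9 CPM in PC9, and 77.7 and 87.5 CPM in H1975. COL6A2 was at 8.56 and 69.6 CPM, 98.0 and 91.4 CPM, and 16.2 and 32.1 CPM. These genes were higher in resistant HCC827, by 3.09-fold (2.75 to 3.47) and 8.12-fold (7.09 to 9.35), and in PC9 COL6A1 was lower by 1.61-fold (1.52 to 1.72). COL6A3 (ENSG00000163359, hg38 chromosome 2, 237324003 to 237414375, minus strand) followed another order, at 0.0729 and 0.225 CPM in HCC827, 1.11 and 10.9 CPM in PC9, and 1.06 and 4.43 CPM in H1975. It was 9.78-fold higher in resistant PC9 (6.38 to 15.7) and 4.18-fold in resistant H1975 (2.71 to 6.69), and its HCC827 values came from 2 and 6 reads. Per length COL6A1 exceeded COL6A3 by 271 and 17.2 times in PC9 and by 190 and 51.3 times in H1975. The alternative chains COL6A5 and COL6A6 stayed under 1 CPM. The summed beaded level was 5.00-fold and 1.31-fold higher in resistant HCC827 and H1975 and stood at 0.810 of the parental level in PC9.

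FACIT collagens bind the surface of fibrils. COL12A1 (ENSG00000111799, hg38 chromosome 6, 75084326 to 75206051, minus strand), which links fibrils to neighboring matrix, had the highest TPM of any collagen, in resistant H1975. It stood at 3.35 and 202 CPM in HCC827, 20.1 and 22.9 CPM in PC9, and 674 and 1346 CPM in H1975. The resistant library was 60.1-fold higher in HCC827 (48.9 to 74.7, from 92 parental reads) and 1.997-fold in H1975 (1.96 to 2.03), and in PC9 the ratio of 1.14 had an interval that included no difference (0.998 to 1.29). COL16A1, a minor matrix collagen, was at 0.0364 and 0.750 CPM in HCC827, 5.14 and 15.5 CPM in PC9, and 7.38 and 18.7 CPM in H1975. It was higher in all 3 resistant libraries, by 3.01-fold in PC9 (2.42 to 3.77) and 2.53-fold in H1975 (2.13 to 3.01), with 1 and 20 reads in HCC827. COL9A2, a cartilage collagen chain, was at 7.33 and 11.9 CPM in HCC827, 6.74 and 6.96 CPM in PC9, and 0.637 and 0.591 CPM in H1975. Its partner genes COL9A1 and COL9A3 stayed under 1 CPM everywhere. The promoter of COL12A1 (chr6:75206054-75206303, minus strand) is set beside that of COL17A1 (chr10:104085881-104086130, minus strand), a gene that differed in the other direction in HCC827, with GC, CCAAT and TATA boxes in capitals (250 bases before the RefSeq start, GRCh38.p14):
COL12A1: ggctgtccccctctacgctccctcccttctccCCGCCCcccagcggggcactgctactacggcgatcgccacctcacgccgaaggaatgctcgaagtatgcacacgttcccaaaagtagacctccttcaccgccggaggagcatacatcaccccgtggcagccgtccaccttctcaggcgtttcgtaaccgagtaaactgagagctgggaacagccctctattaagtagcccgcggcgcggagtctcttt
COL17A1: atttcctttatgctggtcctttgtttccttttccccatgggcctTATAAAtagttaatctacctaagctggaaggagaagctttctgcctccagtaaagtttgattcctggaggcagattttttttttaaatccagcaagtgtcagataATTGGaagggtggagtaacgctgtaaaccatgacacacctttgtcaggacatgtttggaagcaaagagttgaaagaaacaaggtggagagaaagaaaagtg

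The transmembrane collagens were the class with a lower summed level in resistant HCC827 and H1975. COL17A1 (ENSG00000065618, hg38 chromosome 10, 104031286 to 104085957, minus strand) anchors epithelial cells to the basement membrane at hemidesmosomes. It stood at 76.4 and 4.84 CPM in parental and resistant HCC827, 49.1 and 138 CPM in PC9, and 23.5 and 9.39 CPM in H1975. The resistant level was 15.8-fold lower in HCC827 (13.2 to 19.0), 2.50-fold lower in H1975 (2.17 to 2.90) and 2.81-fold higher in PC9 (2.62 to 3.02). The epithelial sum was lower in the resistant library of each line (values above), but not to a like degree. The median log2 ratio of the epithelial markers with at least 10 CPM was −2.11 in HCC827, −0.13 in PC9 and −2.02 in H1975. The part of these differences in the COL17A1 values was not tested. COL13A1, a collagen of cell adhesion sites, was at 2.70 and 11.6 CPM in HCC827, 2.38 and 0.168 CPM in PC9, and 29.8 and 15.6 CPM in H1975. It was 4.31-fold higher in resistant HCC827 (3.33 to 5.63), 14.2-fold lower in PC9 (5.19 to 54.0, from 49 and 4 reads) and 1.90-fold lower in H1975 (1.69 to 2.14). The transmembrane genes therefore differed in opposite directions in HCC827 and PC9, and both were lower in resistant H1975. COL23A1 and COL25A1 stayed under 1 CPM.

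COL18A1 (ENSG00000182871, hg38 chromosome 21, 45405137 to 45513720, plus strand), a multiplexin of basement membranes whose end fragment is endostatin, was the only collagen of the 24 tested whose 3 resistant libraries all lay above its 3 parental libraries in CPM. It stood at 70.8 CPM in parental and 783 CPM in resistant HCC827, 92.6 and 106 CPM in PC9, and 82.0 and 154 CPM in H1975. The resistant level was higher by 11.1-fold (10.6 to 11.6), 1.15-fold (1.08 to 1.22) and 1.88-fold (1.78 to 1.99), so the PC9 difference was small. On the TPM scale the groups overlapped, with 38.8 TPM in resistant PC9 and 38.9 TPM in parental H1975. Of its reads 69.7% mapped uniquely, against 99.9% to 100% for the other collagens that reached 1 CPM, and its model overlaps SLC19A1 on the opposite strand over 20149 bases, so its values are uncertain. Its relative COL15A1 peaked at 2.08 CPM, in parental H1975.

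Anchoring and network-forming collagens complete the set. COL7A1, the anchoring fibril collagen of the epidermal and airway basement membrane zone, was at 3.43 and 31.2 CPM in HCC827, 100 and 153 CPM in PC9, and 105 and 63.4 CPM in H1975. It was 9.11-fold higher in resistant HCC827 (7.35 to 11.4), 1.53-fold higher in PC9 (1.45 to 1.62) and 1.65-fold lower in H1975 (1.56 to 1.76). COL8A1, a short-chain network collagen, was at 1.31 and 45.0 CPM in HCC827, 97.6 and 30.5 CPM in PC9, and 228 and 356 CPM in H1975. The resistant library was 34.3-fold higher in HCC827 (24.6 to 49.2, from 36 parental reads), 3.20-fold lower in PC9 (2.93 to 3.48) and 1.56-fold higher in H1975 (1.51 to 1.61). Both genes thus differed in direction between lines, and both resistant HCC827 levels stayed below the parental levels of H1975.

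**Figure D3:**
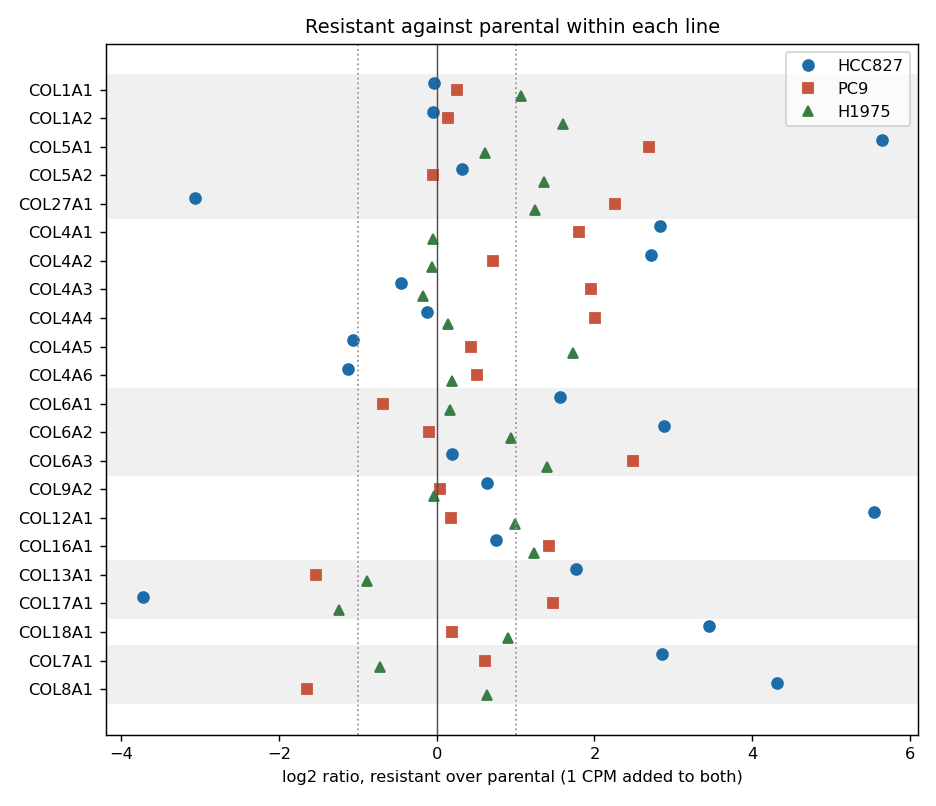
Log2 ratio of resistant to parental CPM (1 CPM added to both) for the same 22 collagens within HCC827 (circles), PC9 (squares) and H1975 (triangles). Dotted lines mark a 2-fold difference. The HCC827 points spread from −3.73 for COL17A1 to 5.64 for COL5A1, and several genes, such as COL8A1 and COL27A1, have points on both sides of 0.

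Counted within a line, collagens that reached 10 CPM in either library were more often 2-fold higher than 2-fold lower in the resistant library. A gene could reach this limit through its resistant library alone, so the counts are not independent of direction. COL5A1, COL12A1 and COL8A1 did so in HCC827 (2.48, 3.35 and 1.31 CPM in the parental library), as did every higher collagen but COL17A1 in PC9. COL17A1 reached it through the parental library alone in HCC827 and H1975. The shares over all genes were taken under the same limit. In HCC827, 10 of 14 measured collagens were at least 2-fold higher, where 10.5% of all 10298 measured genes were, and 2 (COL17A1 and COL4A5) were at least 2-fold lower, where 7.65% of all were. COL27A1, at 9.58 and 0.262 CPM in HCC827, fell just under the limit of 10 CPM and is not in this count. PC9 had 6 of 15 higher (COL5A1, COL6A3, COL4A4, COL4A3, COL17A1 and COL16A1), where 2.42% of all genes were, and 1 lower (COL8A1), where 1.72% were. H1975 also had 6 of 16 higher (COL4A5, COL1A2, COL5A2, COL27A1, COL16A1 and COL1A1), where 1.76% of all genes were, and 1 lower (COL17A1), where 3.22% were. The median log2 ratio of the measured collagens was 2.77 in HCC827, 0.51 in PC9 and 0.93 in H1975, against −0.01, −0.02 and 0.06 over all measured genes. COL5A1 passed 2-fold upward in both gefitinib-selected lines, and COL16A1 in PC9 and H1975. At a minimum of 1 CPM, 13 of 24 collagens were at least 2-fold higher and 4 lower in HCC827 (11% and 9.18% of all genes), 9 of 21 higher and 2 lower in PC9 (3.54% and 2.14%), and 9 of 23 higher and 1 lower in H1975 (2.35% and 4.61%). With deposited TPM in place of CPM, at a minimum of 10 TPM, 2 of 9 measured collagens were higher in PC9 (1.93% of all genes), 3 of 13 were higher in H1975 (1.39%) and 1 of 9 was lower in HCC827 (8.91%). At a minimum of 20 CPM, 3 of 11 were higher in PC9 (1.75% of all genes).

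Over the 3 lines, the comparison of resistant with parental libraries asked which collagens had a shift common to the lines. A gene that differs in 1 line alone, or in opposite directions between lines, can be missed by this test. By the quasi-likelihood test of edgeR with the cell line as a block, 0 of 13541 genes (0%) and 0 of the 24 collagens kept by the filter on low counts passed an adjusted p of 0.05. Adjusted p of the collagens was 0.903 to 0.985. At an unadjusted p of 0.05, 5 of the 24 collagens (COL4A2, COL6A3, COL11A2, COL4A1 and COL16A1) passed, where 3.71% of all genes did. With DESeq2, 58 genes (0.428%) passed, among them COL4A2 with an adjusted p of 0.00032, and with limma-voom 0 passed. Fitted log2 fold changes with their standard errors over the 3 lines were 2.70 ± 0.60 for COL4A2, 2.44 ± 0.56 for COL6A3, 2.17 ± 0.65 for COL4A1, 1.96 ± 0.58 for COL16A1 and 1.54 ± 0.42 for COL11A2. COL4A2 had 1 and 0 reads in H1975 and 1 and 17 in PC9, so outside HCC827 its value rests on few reads. COL5A1 had the highest fitted value, 3.06 ± 1.22, which was 1.68 without HCC827 and 4.47 without H1975. For COL12A1 the fit gave 1.97 ± 1.31, with 0.59 without HCC827, 3.40 without PC9 and 3.03 without H1975.

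**Figure D4:**
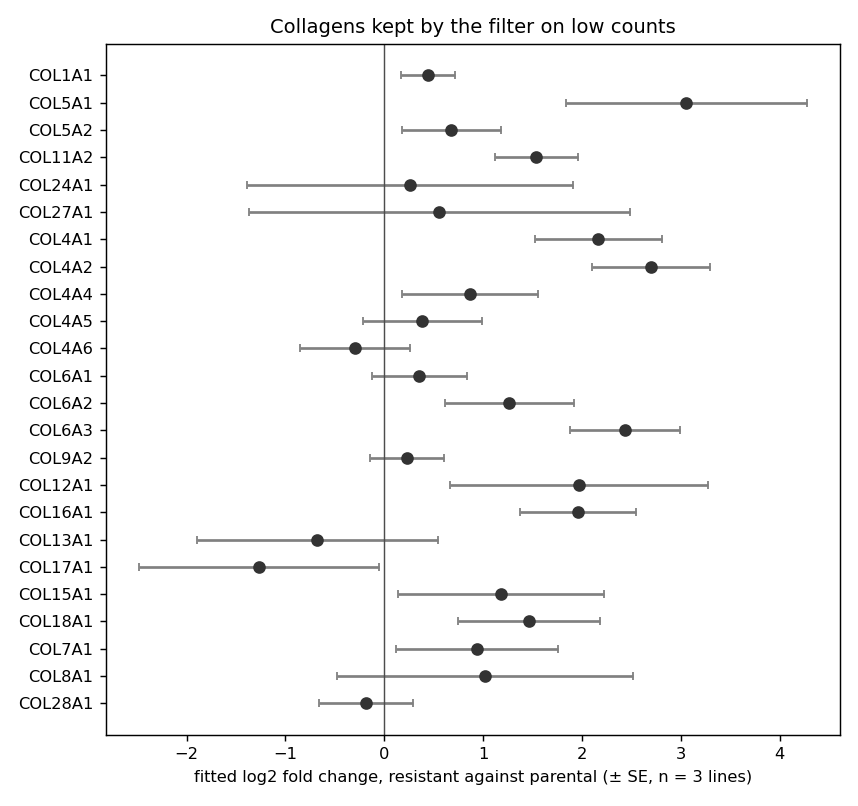
Fitted log2 fold change of resistant against parental libraries (points) with its standard error (bars) for the 24 collagens kept by the filter on low counts, from the fit with cell line as a block over 3 lines. The points of 20 genes lie above 0 and those of 4 below, and the bars are longest for COL27A1, COL24A1 and COL8A1.

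Of the 24 tested collagens 6 were higher in the resistant library of all 3 lines (COL5A1, COL12A1, COL18A1, COL16A1, COL6A3 and COL11A2), where 14.3% of all tested genes were, and 0 were lower in all 3, where 13.5% were. On the CPM scale, though not in TPM, the groups did not overlap for COL18A1 alone, where 1.23% of genes had every resistant library above every parental one and 0.99% had the reverse, which no collagen showed. The fitted change was above 0 for 20 and below 0 for 4 of the tested collagens, with a median of 0.90 against 0.00 over all genes. The filter kept genes that reached its minimum in enough libraries, so 20 of the 44 collagens, among them COL1A2 and COL4A3, have no fitted value.

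The change in the gefitinib-selected lines was also set against the change in H1975, where drug, mutation and line cannot be told apart. By edgeR's quasi-likelihood test 0 of 13541 genes (0%) and 0 of the 24 collagens passed, with an adjusted p of 1 for every collagen. At an unadjusted p of 0.05, 434 genes (3.21%) and 3 collagens passed: COL4A1, COL4A2 and COL4A5. DESeq2 gave 77 genes (0.569%) and 0 collagens, and limma-voom gave 0 genes. The difference (gefitinib-selected minus H1975, log2 ± SE) was 3.05 ± 0.92 for COL4A1, 6.16 ± 1.84 for COL4A2 and −2.17 ± 0.79 for COL4A5, all basement membrane chains. The H1975 change in these differences rests on 4 and 4 reads for COL4A1 and on 1 and 0 reads for COL4A2, so their sizes are uncertain. That of COL5A1 was 3.84 ± 1.49 and that of COL7A1 was 2.59 ± 1.17, with unadjusted p of 0.0573 and 0.0867 by the same edgeR test. In this design, 1 residual degree of freedom is left.

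Reads in introns were compared with exon reads for collagens with at least 10 CPM and at least 20 intron reads in a line. Both kinds of reads come from the same libraries, and a gene could reach these limits through its resistant library alone. The comparison is thus not an independent check of the exon values. In HCC827 the intron reads of 13 such genes lay on the same side as the exon reads in every case, 10 higher and 3 lower in the resistant library. Among these, the intron intervals of COL1A1 (0.554, 0.187 to 1.49) and COL9A2 (1.30, 0.725 to 2.35) included no difference. For COL5A1 they went from 55 to 543 reads, 10.2-fold after scaling (7.69 to 13.7), where exon reads differed 69.6-fold. COL12A1 had 0 and 68 intron reads in HCC827, and COL8A1 had 36 and 782, a 22.3-fold difference (16 to 32.1) beside 34.3-fold for exons. COL18A1 intron reads were 4.19-fold higher (3.56 to 4.97), and those of COL4A2 and COL4A1 2.17-fold (1.60 to 2.98) and 1.75-fold (1.27 to 2.45), all below the exon folds. COL7A1 had the larger fold in introns, with 2 and 55 intron reads, 28.3-fold (7.47 to 239), beside 9.11-fold for exons. In PC9, 7 of 14 genes were higher and 3 lower in both readouts, and 4 (COL12A1, COL18A1, COL4A5 and COL4A6) had a scaled exon ratio above 1 and a scaled intron ratio below 1. Among these, COL4A5 had an intron ratio of 0.634 (0.577 to 0.696) where the exon ratio was 1.36, and the intron intervals of the others included no difference. In H1975, 11 of 16 genes were higher and 3 lower in both, and COL6A1 and COL6A2 were opposite, with intron ratios of 0.686 (0.434 to 1.08) and 0.980 (0.864 to 1.11) that included no difference. COL5A1 intron reads were 1.99-fold higher there (1.87 to 2.11) beside 1.53-fold for exons. The intron interval held the exon ratio for 6 of 13, 5 of 14 and 9 of 16 genes in HCC827, PC9 and H1975. Whether intron reads came from these genes' own strand is not given in the sources used here.

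**Figure D5:**
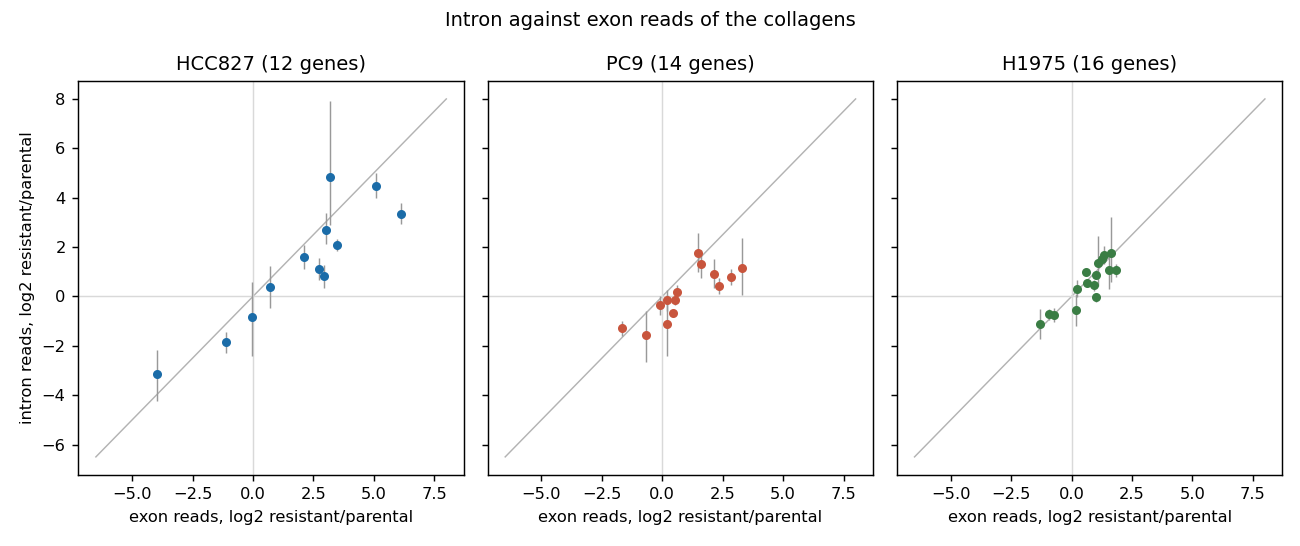
Log2 ratio of resistant to parental intron reads against that of exon reads for collagens with at least 10 CPM and 20 intron reads, with 95% Clopper-Pearson counting intervals of the intron ratio (vertical bars) and a line of equal ratios. COL12A1 in HCC827, with 0 parental intron reads, is left out, so 12 of the 13 genes appear there, and most HCC827 points with high exon ratios lie below the line.

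The remaining collagens were low. COL11A2, a minor fibrillar chain, was at 0.583 and 1.84 CPM in HCC827, 0.824 and 2.10 CPM in PC9, and 2.33 and 7.16 CPM in H1975, higher in each resistant library by 3.15-fold (1.76 to 5.93), 2.54-fold (1.44 to 4.71) and 3.07-fold (2.27 to 4.201). COL3A1, the fibrillar partner of type I in soft tissue, had 2 and 73 reads in HCC827 (37.5-fold, 10.0 to 316), 1 and 1 in PC9, and 6 and 53 in H1975 (6.84-fold, 2.94 to 19.5). COL11A1 had 0 and 47 reads in HCC827, at least 16.1-fold higher against a floor of 3 counts in that library, and COL20A1 had 0 and 30, at least 10.3-fold higher. These 4 genes all had more reads in resistant HCC827, at 1.12 to 2.74 CPM. COL14A1 reached 1.02 CPM in resistant H1975, COL8A2 reached 1.68 CPM in resistant PC9, and COL28A1, COL24A1 and COL21A1 peaked in parental HCC827 at 5.17, 1.86 and 1.46 CPM. Under 1 CPM in every library, with at most 20 reads, were COL2A1, COL5A3, COL6A5, COL6A6, COL9A1, COL9A3, COL10A1, COL19A1, COL22A1, COL23A1, COL25A1 and COL26A1. Cartilage collagens COL2A1 and COL10A1 were thus not detectable above a few reads at this depth.

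The shown promoters were chosen from 32 of the 44 collagens that matched a RefSeq promoter window, and each of 5 short motifs was searched on both strands of the 250 bases before a start. The GC box GGGCGG, the binding motif of SP-family factors, was found for 21 of the 32 collagens, where 42.6% of all 35116 windows held it. CCAAT was found for 11 (32.0% of all windows), TATAAA for 7 (10.7%), the ZEB-type E-box CACCTG for 5 (17.5%) and the AP-1 motif TGANTCA for 1 (6.57%). Some genes have several windows, and a collagen was counted when any of its windows held the motif. The share over all was taken per window instead, so the collagen counts and these shares are not in the same unit. The COL5A1 and COL12A1 windows held 2 and 1 GC boxes and no TATAAA, whereas that of COL17A1 held TATAAA and CCAAT and no GC box. No match overlapped another in the windows printed above.

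Of 22 genes that fold and modify collagen chains in the endoplasmic reticulum, all tested, 11 were higher and 1 lower in all 3 resistant libraries (14.3% and 13.5% of all tested genes). In this list 0 genes passed with edgeR, and P3H1 passed with DESeq2 (adjusted p = 0.0208), where 0.428% of all genes did. P3H1, a prolyl 3-hydroxylase, stood at 38.3 CPM in parental and 135 CPM in resistant HCC827, 15.5 and 34.9 CPM in PC9, and 45.0 and 79.5 CPM in H1975, with a fitted log2 fold change of 1.27 ± 0.25. Its relative P3H2 was at 18.8 and 123, 43.6 and 56.6, and 160 and 183 CPM, and CREB3L1, a transcription factor of secretory matrix cells, at 0.583 and 14.5, 1.31 and 2.52, and 42.1 and 51.4 CPM. P3H3 was near its parental level in HCC827 and H1975 and went from 0.291 to 3.57 CPM in PC9. The list's median fitted log2 fold change was 0.31, against 0.90 for the tested collagens and 0.00 over all genes.

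Of 14 genes for processing and crosslinking, 12 were tested, of which 3 were higher and 1 lower in all 3 resistant libraries, where 14.3% and 13.5% of all genes were, and 0 passed with edgeR or DESeq2. SPARC, a collagen-binding matrix protein, was at 8.56 and 137 CPM in HCC827, 13.2 and 55.3 CPM in PC9, and 292 and 256 CPM in H1975. LOXL2, a lysyl oxidase that crosslinks type IV collagen, was at 102 and 833, 64.9 and 84.8, and 589 and 742 CPM. Both had their widest difference in HCC827, as did LOX (2.004 and 34.9 CPM, against 12.7 and 15.2 CPM in PC9 and 408 and 328 CPM in H1975), of whose reads 43.8% mapped uniquely. PCOLCE, an enhancer of procollagen trimming, was lower instead, at 10.2 and 2.47, 2.38 and 2.31, and 3.61 and 0.460 CPM.

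Among 11 genes for receptors and uptake, 7 were tested, of which 1 was higher and 1 lower in all 3 resistant libraries, near the 14.3% and 13.5% of all genes, and 0 passed with edgeR. MRC2, an endocytic collagen receptor, was at 27.4 and 128 CPM in HCC827, 3.49 and 27.7 CPM in PC9, and 77.8 and 39.4 CPM in H1975. Its difference between the gefitinib-selected lines and H1975 was 3.58 ± 0.55 on the log2 scale, with an adjusted p of 1 by edgeR and 0.00095 by DESeq2. Of all genes, 0.569% passed with DESeq2 in that comparison. ITGA2, the integrin subunit that binds collagen in epithelium, was at 78.3 and 10.5, 350.4 and 309.9, and 158 and 98.4 CPM, lower in each resistant library. ITGA1, its counterpart in mesenchymal cells, was at 8.64 and 19.3, 9.40 and 8.22, and 16.1 and 31.8 CPM. Their shared partner ITGB1 was at 1031 and 3962 CPM in HCC827, 926 and 988 CPM in PC9, and 2711 and 2329 CPM in H1975, with 63.0% of its reads unique. Of 10 degradation genes 9 were tested, of which 4 were higher and 0 lower in all 3 resistant libraries (14.3% and 13.5% of all genes), and 0 passed with either tool. MMP14, a membrane-bound collagenase, was at 0.765 and 1.05 CPM in HCC827, 25.3 and 40.4 CPM in PC9, and 178 and 309 CPM in H1975. CTSB, a lysosomal protease, was at 218 and 705 CPM in HCC827, 113 and 123 CPM in PC9, and 372 and 269.8 CPM in H1975, and CTSL and PEPD had log2 ratios of −0.35 to 0.64 and 0.16 to 0.61 over the lines.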

How the data were processed

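Messenger RNA libraries were made with a TruSeq stranded kit from RNA extracted with GENEzol, per the labels' protocols, 1 for each of 3 parental and 3 resistant lines. Trimmomatic, Bowtie2 and hg38 are named in the submitters' processing notes. How reads were counted and annotated, and whether strand was used, is not given in the sources used here. The authors deposited, per the file headers, whole-number counts of total, uniquely mapping and intron reads per gene, without normalization, and TPM. A table of the whole series deposited by the authors held the same TPM, with a largest difference of 0.005, and was used in that check alone.

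Total exon reads were scaled by TMM and tested with edgeR 4.0.16 (quasi-likelihood, R 4.3.3) on 13541 genes that passed filterByExpr at a minimum count of 10 and a total of 15, with cell line as a block (2 residual degrees of freedom; the labels tie each subline to its parental line) and Benjamini-Hochberg adjustment over all genes at 0.05, two-sided. The fits were tested on simulated data, with changes of the same size in each changed line. The edgeR test over the 3 lines called 20% of 2-fold and 80% of 4-fold changes. That of the gefitinib-selected against the H1975 change called 0% and 20%, so smaller changes can be missed. Alternatives used DESeq2 1.42.0, limma-voom (limma 3.58.1), other scalings, filters and read types, and left out each line. Within a line, log2 ratios of CPM were taken after adding 1 CPM to each value, and genes reaching 10 CPM in either library were counted at 2-fold. Ratios carry 95% Clopper-Pearson intervals, which cover counting error only, and depth per library sets the floor of 3 counts. Named were all collagens with at least 10 CPM in a library with every value, those with at least 1 CPM with their highest level, and, of each other list, up to 4 members that reached 10 CPM in a library and had the largest mean absolute log2 ratio. The collagens and the lists were chosen with earlier results of these data known. Promoter sequences came from RefSeq (GRCh38.p14).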

Additional observations from a re-analysis of the deposited data

How the results depend on the processing

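The 2 libraries of a line were paired by cell line, and without the replicate block 0 genes and 0 collagens passed in edgeR, as with it. Without the block the fitted log2 fold change of COL17A1 was 0.032, that of COL6A1 −0.037 and that of COL4A6 0.46, and limma-voom gave 0.24 for COL4A6, each opposite in sign to the fit with the block. DESeq2 called 58 genes and 1 collagen (COL4A2) for resistant against parental and 77 genes for gefitinib-selected against H1975 change, where edgeR called 0. Leaving out each line in turn gave 0 calls, and fitted values from −0.024 to 0.39 for COL9A2, −0.059 to 1.88 for COL7A1, −0.51 to 2.75 for COL8A1, −1.56 to 2.12 for COL27A1, −1.94 to 0.55 for COL13A1, −2.66 to 0.11 for COL17A1, −0.27 to 0.88 for COL6A1, −0.91 to 0.37 for COL4A6 and −0.32 to 1.11 for COL4A5. The sign of these 9 depends on which lines are used. Deposited TPM gave 1 lower collagen of 9 measured in HCC827 (8.91% of all genes) in place of 2 of 14, 2 higher of 9 in PC9 (1.93%) in place of 6 of 15, and 3 higher of 13 in H1975 (1.39%) in place of 6 of 16. A minimum of 1 CPM gave 4 lower in HCC827 and 2 lower in PC9, where 9.18% and 2.14% of all genes were, and a minimum of 20 CPM gave 3 higher of 11 in PC9 (1.75% of all genes). The log2 ratio of the summed collagen level was 2.50 in HCC827, and 2.40 by library size alone, 2.39 with uniquely mapping reads, 2.26 with TPM and 2.36 without COL12A1, an alternative chosen after seeing the data. In PC9 it was 0.37 and 0.20 with TPM, and in H1975 0.78, and 0.71 by library size alone, 0.61 with TPM and 0.61 without COL12A1. The sum stayed higher in the resistant library under each of these settings. No sum was taken without COL18A1, which was at 70.8 and 783 CPM in HCC827 and whose values are uncertain. Depth limits the collagens under 1 CPM, which had at most 20 reads.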

Other observations

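Some collagens had intron reads where exon reads were at or near 0. COL4A1 in H1975 had 100 and 314 intron reads in the parental and resistant library, 2.43-fold after scaling (1.93 to 3.07), beside 4 and 4 exon reads. COL4A3 in HCC827 had 30 and 50 intron reads beside 10 and 0 exon reads, and in H1975 27 and 40 beside 4 and 1. COL11A1 in PC9 had 47 and 54 intron reads beside 4 and 3 exon reads. The COL4A1 model spans the annotated gene AL161773.1 on the same strand, which had 0 exon reads in every library. In contrast, COL1A1 had 12 and 40 intron reads in H1975 beside 1399 and 3835 exon reads.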
